A study of Mus musculus with 24 samples.

Results

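Cholesterol made inside the brain is built, shipped between cells and broken down largely by the brain's own cells, and 7 genes of that traffic were followed here: Hmgcs1, Sqle, Apoe, Clu, Abca1, Lpl and Cyp46a1. They were taken by name from the 33902 gene symbols of a single-nucleus RNA sequencing (snRNA-seq) table, and all 7 had counts. Each was described in 14 cell types of the ventral hippocampus and compared between 2 inbred mouse strains, C57BL/6J (B6) and DBA/2J (D2). All animals were adult males aged 10 to 16 weeks, no treatment is named in the labels, and tissue of about 2 animals was pooled for each library. There were 2 snRNA-seq and 2 single-nucleus ATAC sequencing (snATAC-seq) libraries per strain, numbered 2 and 3, so an individual animal could not be followed and an error bar describes pools. The NeuN sort before snRNA-seq set the balance of neurons and other cells, and no such sort preceded snATAC-seq.

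Neurons and glia divide this work. Astrocytes make much of the sterol of the adult brain. Hmgcs1 encodes the synthase that feeds the mevalonate pathway, and Sqle encodes squalene epoxidase, which starts the sterol branch. Apolipoprotein E (Apoe) and clusterin (Clu) are the main protein parts of brain lipoproteins, and the transporter Abca1 loads them with lipid. Lipoprotein lipase (Lpl) releases fatty acids from lipoprotein triglycerides, and Cyp46a1 hydroxylates cholesterol in neurons so that it can leave the brain. When sterol is short, SREBP factors bind sterol regulatory elements and switch synthesis genes on. When oxysterols are plentiful, LXR receptors switch on export genes such as Abca1.

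Of the 7 promoters, 4 were matched in the RefSeq promoter table (GRCm38.p6, from 250 bases before the start to 50 after it), those of Hmgcs1, Apoe, Abca1 and Cyp46a1 and not those of Sqle, Clu and Lpl. The promoters of Hmgcs1 and Abca1 are printed because they carry the sequence classes through which synthesis and export are known to be regulated. The matched promoters were searched on both strands for the sterol regulatory element TCACCCCAC, which 181 of 32851 promoters in the table held (0.551%), and for an LXR-type element, TGACCNNNNNTAACC, which 16 held (0.0487%). The first was found in Hmgcs1, 137 bases before the start, and the second in Abca1, 67 bases before it, and the match is in capitals. The Apoe and Cyp46a1 windows held neither string. Only these strings were searched, so the shares and matches say nothing about other forms of either element.
Hmgcs1 promoter, chr13:119690101-119690400, + strand: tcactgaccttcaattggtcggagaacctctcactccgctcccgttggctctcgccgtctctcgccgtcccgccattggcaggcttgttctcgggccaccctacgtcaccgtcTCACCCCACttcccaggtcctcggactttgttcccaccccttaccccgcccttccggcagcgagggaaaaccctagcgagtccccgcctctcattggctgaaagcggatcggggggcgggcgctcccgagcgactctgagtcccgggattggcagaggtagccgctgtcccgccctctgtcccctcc
Abca1 promoter, chr4:53159846-53160145, - strand: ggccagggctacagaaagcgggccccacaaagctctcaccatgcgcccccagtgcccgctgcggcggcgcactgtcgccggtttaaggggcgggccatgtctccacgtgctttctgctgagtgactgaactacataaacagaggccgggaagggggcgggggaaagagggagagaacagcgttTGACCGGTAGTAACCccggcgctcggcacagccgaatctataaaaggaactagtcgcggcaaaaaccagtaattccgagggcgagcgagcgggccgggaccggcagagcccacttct

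The authors summed raw counts over all nuclei of 1 cell type in 1 library, and these sums are the values used. Levels are given as CPM, a gene's or peak's counts scaled to a common library total after adjustment for composition over all columns of the assay, and strain differences as log2 fold changes (D2 minus B6) with a standard error (SE) from edgeR's quasi-likelihood test in each cell type, with Benjamini-Hochberg adjustment over all genes tested. Sums held 225029 to 11352265 counts from 76 to 1489 nuclei. Each non-neuronal type and Inh-MGE had the highest summed level of its own marker list among the 14 types, and the 8 excitatory types held the 8 highest sums of the excitatory list. The cell type names are the authors'. Exc marks excitatory neurons (DG is the dentate gyrus, CA1 and CA3 are fields of the hippocampus) and Inh-MGE inhibitory neurons. NN marks non-neuronal cells, namely astrocytes (Astro), oligodendrocytes (ODC), their precursors (OPC), microglia (MGC) and vascular and leptomeningeal cells (VLMC). The summed markers of other types were above 0. The oligodendrocyte list summed to 330 and 369 CPM in B6 astrocytes and 143 and 169.9 CPM in D2 astrocytes, and the microglial list to 402 and 423 CPM in B6 Exc-DG and 322 and 323 CPM in D2 Exc-DG. Both sums thus moved with strain outside their own cell type, by a factor (D2 over B6) of 0.447 in the first case and 0.783 in the second. Most of the second sum was 1 gene, P2ry12, at 350.6 and 332 CPM in B6 Exc-DG and 279 and 275 CPM in D2 Exc-DG. Cx3cr1 of the same list overlapped between strains there, at 26.8 and 25.5 CPM in B6 and 24.0 and 27.7 CPM in D2.

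The strains differed at many genes, so each call below is set against the share of all tested genes that passed. That share was 36.0% in Exc-DG, 35.0% in Exc-CA1-Galntl6, 32.1% in Exc-CA3, 28.5% in Exc-CA1-Fras1, 28.0% in Exc-ENT, 19.7% in Exc-Gpc6, 19.4% in Exc-CA1-Camk2d and 8.44% in Exc-Cdh12. It was 21.0% in Inh-MGE, 26.2% in astrocytes, 19.0% in oligodendrocytes, 16.2% in their precursors, 10.4% in microglia and 7.87% in VLMC. Over all types, 13.9% of gene and cell type pairs were higher in D2 and 9.91% were lower. The 7 genes gave 88 tested pairs, of which 11 were higher in D2 and 6 lower. Lpl supplied 8 of the 11 and none of the 6. The other 6 genes gave 78 tested pairs, 3 higher in D2 and 6 lower, in each direction a smaller share than over all pairs. The remaining 10 pairs of the 7 genes had too few counts to be tested, and 4 of those 10 were of Lpl. Overlap between the libraries of the strains is given below as a description only. The share of all genes or peaks without overlap was not counted. Pairs that were not called could lack overlap too, such as Lpl in Inh-MGE and Cyp46a1 in Exc-CA1-Fras1 (edgeR, adjusted p = 0.780 and 0.963).

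Astrocytes held the highest level of 4 of the 7 genes. This is a description without a test, because the types were made by clustering the same nuclei on their transcripts. Hmgcs1 stood at 92.3 ± 13.2 CPM in astrocytes (SD, n = 4 libraries), 40.1 ± 7.84 CPM in oligodendrocytes and 8.03 ± 0.781 CPM in Exc-DG, the lowest. The astrocyte values (80.2 to 109 CPM) lay above those of every other type, and from oligodendrocytes down to Exc-CA1-Galntl6 each type overlapped the next. Sqle followed a like order, with 62.5 ± 12.01 CPM in astrocytes, 34.9 ± 9.50 CPM in Exc-ENT and 8.79 ± 1.08 CPM in microglia. In each library the astrocyte level of Hmgcs1 was set against the mean of the 9 neuronal types, and it was on average 4.66-fold higher (log2 ratio 2.22 ± 0.33, SD, n = 4). For Sqle the same ratio was 3.05-fold (1.61 ± 0.26).

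The lipoprotein genes were steeper. Apoe reached 5832 ± 1209 CPM in astrocytes, from 1165 ± 80.6 to 1594 ± 312 CPM in the other non-neuronal types, and from 167 ± 13.9 CPM in Exc-CA3 to 259 ± 25.8 CPM in Exc-Gpc6. These form 3 tiers with no overlap between libraries of neighbouring tiers, while types within the 2 lower tiers overlapped their neighbours. Clu was at 564 ± 68.1 CPM in astrocytes and between 27.2 ± 3.60 and 82.9 ± 8.65 CPM elsewhere, with Inh-MGE, at 61.5 ± 5.27 CPM, the highest of the neuronal types. Astrocytes exceeded the neuronal mean 28.2-fold for Apoe (log2 ratio 4.82 ± 0.30) and 14.8-fold for Clu (3.89 ± 0.15). The astrocyte marker list summed to 9824 CPM in astrocytes and, in single libraries, to between 66.0 and 697 CPM in neuronal types. The highest of these sums, in Exc-ENT (mean 676 CPM), was mostly Slc1a2 (649.9 CPM), while Aqp4 was at 5.37 CPM there and 279.5 CPM in astrocytes and Gja1 at 6.16 and 504 CPM. The part of astrocyte RNA in neuronal Apoe and Clu was not tested.

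Abca1 was the only member whose own highest mean was in microglia, at 264 ± 80.3 CPM against 185 ± 13.7 CPM in astrocytes, but the libraries of these types overlapped. It fell in steps through VLMC (141 ± 14.6 CPM), oligodendrocyte precursors (131 ± 18.3 CPM) and oligodendrocytes (82.9 ± 9.51 CPM), whose values lay above every neuronal type. Among neurons it ranged from 23.8 ± 2.43 CPM in Exc-CA3 to 2.87 ± 0.876 CPM in Exc-ENT. Cyp46a1 ran the other way. It was highest in Exc-CA1-Fras1 (51.0 ± 1.44 CPM) and Inh-MGE (50.0 ± 3.61 CPM), which overlapped, and lowest in microglia (8.63 ± 1.55 CPM) and VLMC (8.67 ± 2.05 CPM). Exc-CA3 (26.3 ± 0.892 CPM) and Exc-ENT (27.2 ± 3.10 CPM) had about the astrocyte level (27.4 ± 1.85 CPM), with overlapping libraries. Lpl had its highest mean in Exc-CA3 (49.9 ± 36.8 CPM) and the next in Exc-CA1-Camk2d (37.5 ± 24.7 CPM), with an SD that reflects the strain difference described next.

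**Figure D1:**
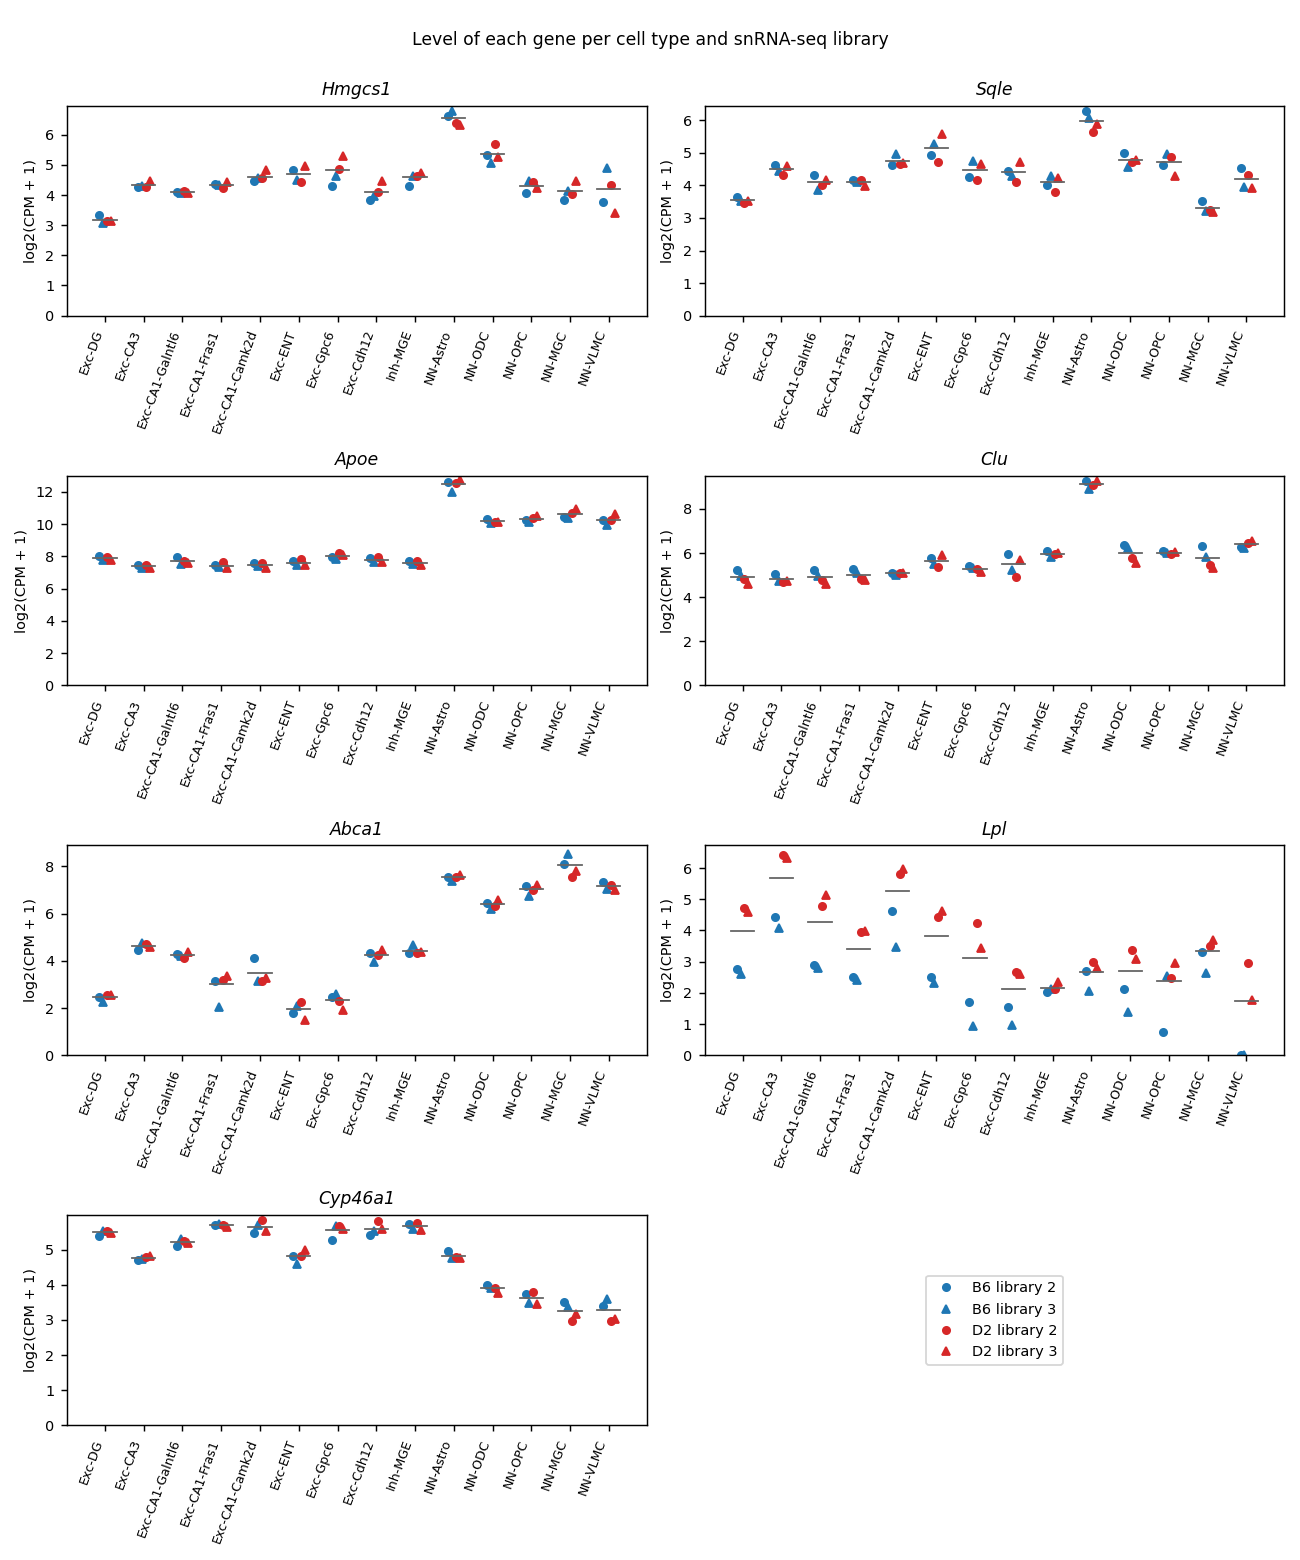
Level of each of the 7 genes in 14 cell types. The vertical axis is log2(CPM + 1), each point is 1 snRNA-seq library (blue B6, red D2) and each grey line is at the mean CPM of the 4 libraries. Astrocytes stand highest for Hmgcs1, Sqle, Apoe and Clu, microglia have the highest mean for Abca1, neurons for Cyp46a1, and red and blue part for Lpl in the excitatory types.

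Across the 14 types, the genes whose mean log2(CPM + 1) was most like that of Hmgcs1 were Msmo1 (Pearson r = 0.939), Idi1 (0.925) and Acsl3 (0.876), out of 14507 genes compared. For Sqle they were Abhd3 (0.880), Acat2 (0.862) and Idi1 (0.852). Apoe was closest to Tcf7l2 (0.964), mt-Nd3 (0.961) and Nde1 (0.959), Clu to Glud1 (0.966), Entpd2 (0.965) and Smpdl3a (0.961), and Abca1 to Tcn2 (0.940), Acad12 (0.931) and A930037H05Rik (0.929). Lpl was closest to Gm11639 (0.902), Gm47071 (0.893) and Gm26724 (0.859), and Cyp46a1 to Mlx (0.948), Capn10 (0.945) and Bri3bp (0.944). Hmgcs1 and Sqle correlated with each other at r = 0.835, and Abca1 and Cyp46a1 at r = -0.793. All these points share the same 4 libraries and are a description over 14 types.

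Lpl carried the largest strain difference of the 7. The gene lies on chromosome 8 from 68880491 to 68907448 on the + strand (GENCODE vM21, GRCm38). In Exc-CA3 the B6 libraries held 20.4 and 15.7 CPM and the D2 libraries 83.6 and 79.7 CPM, 4.61-fold higher in D2 (log2 fold change 2.20, SE 0.13, adjusted p = 6.06e-10). In Exc-DG the values were 5.81 and 5.09 CPM in B6 and 25.5 and 23.2 CPM in D2 (2.20, SE 0.16, adjusted p = 6.97e-08). Both groups were tight and far apart, but many other genes had larger fold changes. By absolute log2 fold change Lpl ranked 1833 of 16337 genes tested in Exc-CA3 and 2303 of 17723 in Exc-DG. By the edgeR p-value it ranked 254 and 725.

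The CA1 types behaved alike. Exc-CA1-Galntl6 had 6.51 and 5.98 CPM in B6 and 26.7 and 34.2 CPM in D2 (log2 fold change 2.31, SE 0.19, adjusted p = 5.58e-08), and Exc-CA1-Fras1 had 4.72 and 4.34 CPM against 14.5 and 14.9 CPM (1.72, SE 0.29, adjusted p = 3.71e-05). In Exc-CA1-Camk2d the B6 libraries themselves differed, at 23.6 and 9.96 CPM, but both lay below the D2 libraries at 54.8 and 61.6 CPM (1.85, SE 0.27, adjusted p = 2.05e-04). Without D2 library 3 this call was lost (1.76, adjusted p = 0.0787). The log2 fold change was 2.55 without B6 library 2 and 1.29 without B6 library 3, with the call kept in both.

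In Exc-ENT Lpl rose from 4.75 and 3.97 CPM in B6 to 20.4 and 23.8 CPM in D2 (log2 fold change 2.34, SE 0.26, adjusted p = 1.54e-09). Exc-Gpc6 showed the steepest change, from 2.28 and 0.921 CPM to 17.7 and 9.79 CPM (3.21, SE 0.50, adjusted p = 3.83e-06), on only 4 and 2 counts in B6. It was 3.91 without B6 library 2, 2.66 without B6 library 3 and 2.65 without D2 library 2, and passed each time. The eighth excitatory type, Exc-Cdh12, held 1 count in each B6 library and 7 and 4 in D2, too few to be tested. Lpl was thus called higher in D2 in 7 of the 7 excitatory types tested, where the share of all genes called ran from 19.4% to 36.0%. These types share animals and libraries, so they are not 7 independent replicates of the strain difference.

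Inh-MGE and astrocytes did not pass. Inh-MGE had 3.12 and 3.38 CPM in B6 and 3.41 and 4.06 CPM in D2 (log2 fold change 0.21, SE 0.39, adjusted p = 0.780). Astrocytes had 5.57 and 3.14 CPM against 6.94 and 5.97 CPM (0.57, SE 0.37, adjusted p = 0.295). In the joint fit of all types, with the library kept as a term, the Lpl strain difference varied among cell types (adjusted p = 0.00101; 13.9% of genes passed this test). The planned contrast of all neuronal types minus all non-neuronal types did not pass for Lpl and was below 0 (-0.23, SE 0.60, adjusted p = 1). Its non-neuronal mean gives equal weight to microglia, oligodendrocyte precursors and VLMC, which held too little Lpl to be tested alone. VLMC held 0 counts in both B6 libraries. Its neuronal mean likewise gives equal weight to Inh-MGE and to Exc-Cdh12, which also held too little Lpl to be tested. The part of any single type in this contrast was not tested. Contrasts chosen after the values were seen gave a mean difference in the excitatory types that exceeded that in Inh-MGE by 2.03 (SE 0.47, adjusted p = 0.00927; 0.999% of genes passed) and that in astrocytes by 1.63 (SE 0.42, adjusted p = 0.00646; 6.34% passed). The first contrast lost its call without B6 library 3 (1.69, adjusted p = 0.329) or D2 library 2 (1.85, adjusted p = 0.188), and the second without B6 library 2 (1.49, adjusted p = 0.191) or D2 library 3 (1.54, adjusted p = 0.0705).

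Oligodendrocytes were called as well, on few counts. Lpl had 3.32 and 1.64 CPM (6 and 4 counts) in B6 and 9.42 and 7.40 CPM (12 and 10 counts) in D2 (log2 fold change 1.86, SE 0.50, adjusted p = 0.00846), and the call was lost with DESeq2 (adjusted p = 0.434) and without any one of the 4 libraries (adjusted p from 0.0675 to 0.318). The excitatory marker list summed to 99.0 and 90.4 CPM in B6 oligodendrocytes and 87.2 and 68.1 CPM in D2 oligodendrocytes, against means of 350.2 to 703 CPM in the excitatory types, and its part in this result was not tested. Microglia (6 and 5 counts in B6, 6 and 9 in D2), oligodendrocyte precursors (1 and 8 against 6 and 10 counts) and VLMC (0 counts in both B6 libraries, 5 and 1 in D2) held too little Lpl to be tested.

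**Figure D2:**
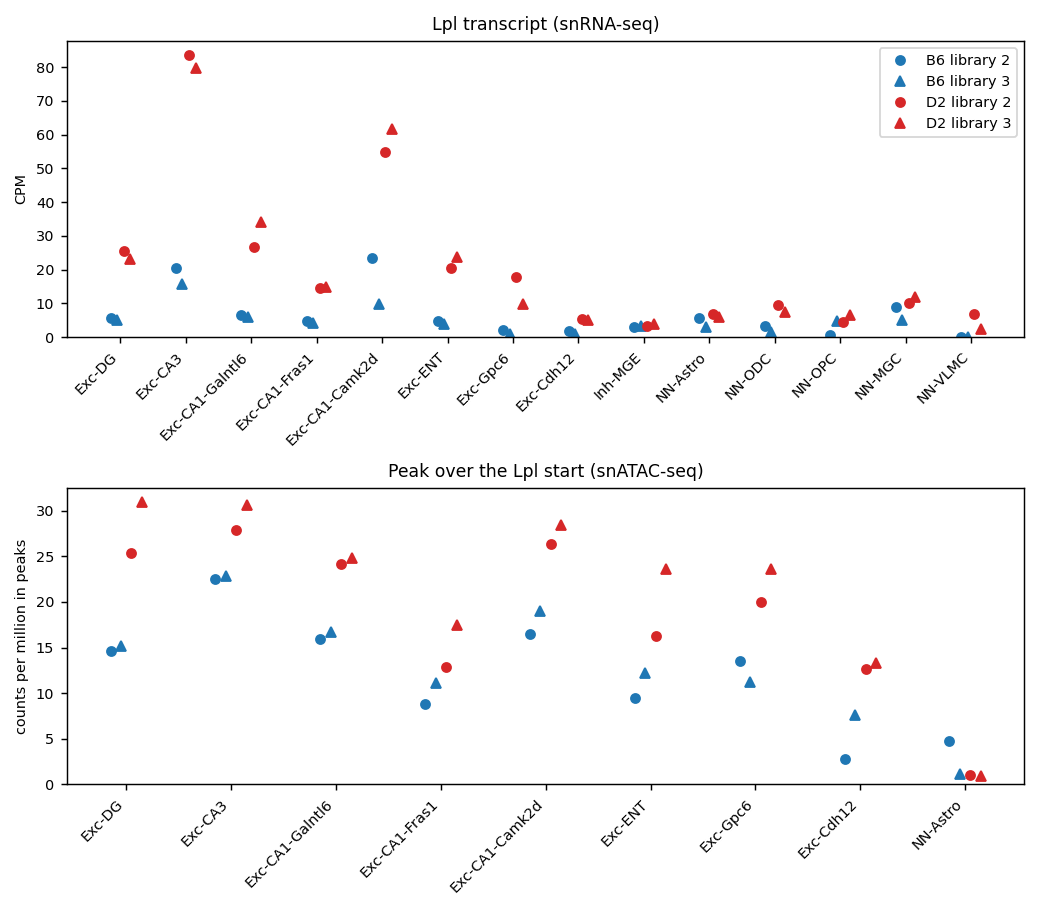
Lpl by cell type and library. The upper panel gives the transcript in CPM (snRNA-seq, 14 cell types) and the lower panel the snATAC-seq peak over the Lpl start in CPM (snATAC-seq, 9 cell types). Blue points are B6 libraries and red points D2 libraries. In Exc-CA3 the transcript is at 83.6 and 79.7 CPM in D2 and 20.4 and 15.7 CPM in B6, and in every excitatory type both D2 libraries lie above both B6 libraries in both panels.

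The snATAC-seq table gives a second, separately prepared measure at the same locus in 9 cell types, the 8 excitatory types and astrocytes. It was asked whether the peak over each member's start differed between strains, and peaks with at least 10 counts over the 4 libraries were tested. The share of all tested peaks that passed was 5.97% in Exc-DG, 5.26% in Exc-CA1-Galntl6, 5.03% in Exc-CA3, 2.56% in Exc-CA1-Camk2d, 2.41% in Exc-Gpc6, 2.18% in Exc-CA1-Fras1, 1.39% in Exc-ENT, 0.473% in Exc-Cdh12 and 0.198% in astrocytes, and 1.75% of peak and cell type pairs were higher in D2. Of 62 pairs of a promoter peak and a cell type, 9 were higher in D2 and none was lower (edgeR). Of the 9, 6 were of Lpl and 3 of Sqle.

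The Lpl start lies inside a peak at chromosome 8, 68879959 to 68881944 (mm10). In Exc-DG it held 14.6 and 15.1 CPM in B6 and 25.4 and 31.0 in D2, 1.91-fold higher (log2 fold change 0.94, SE 0.09, adjusted p = 5.95e-22). Exc-CA1-Galntl6 had 16.0 and 16.7 against 24.1 and 24.8 (0.57, SE 0.10, adjusted p = 6.90e-07), and Exc-CA3 22.5 and 22.9 against 27.9 and 30.7 (0.38, SE 0.08, adjusted p = 5.20e-04). The strains did not overlap in any of these.

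Exc-ENT had 9.52 and 12.2 CPM in B6 and 16.2 and 23.6 in D2 (0.82, SE 0.17, adjusted p = 2.79e-04), Exc-Gpc6 13.5 and 11.2 against 19.95 and 23.6 (0.85, SE 0.19, adjusted p = 0.00107), and Exc-CA1-Camk2d 16.5 and 19.0 against 26.4 and 28.4 (0.60, SE 0.13, adjusted p = 3.27e-04). Exc-CA1-Fras1 missed the threshold with a like difference (0.56, SE 0.17, adjusted p = 0.0542), as did Exc-Cdh12 with few counts (1.08, SE 0.41, adjusted p = 0.376). The astrocyte libraries held 1 to 3 counts in this peak and were not tested. The calls in Exc-DG and Exc-CA1-Galntl6 were made with any library left out. Those in Exc-CA3 and Exc-CA1-Camk2d were lost without either D2 library, that in Exc-ENT without D2 library 3 (0.53, adjusted p = 0.397), and that in Exc-Gpc6 without D2 library 3 or B6 library 3 (0.60, adjusted p = 0.356). Set side by side, the transcript differed more than the peak in each excitatory type where both passed, for example by 2.20 against 0.38 in Exc-CA3 on the log2 scale, and no test compared the assays.

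Other peaks of the gene and of the 2 kb on either side were examined after the promoter result was known. The 6 such peaks gave 42 tested pairs, 12 of them higher in D2 and none lower. A peak centred 2441 bases after the start (chromosome 8, 68882582 to 68883282, overlapping an annotated exon) passed in 5 types. In Exc-DG it went from 1.69 and 1.13 to 3.66 and 4.64 CPM (log2 fold change 1.56, SE 0.22, adjusted p = 1.15e-09). A peak just beyond the gene's end (68907989 to 68909034) also passed in 5 types, with the largest difference in Exc-Gpc6, from 1.07 and 0.873 to 6.65 and 7.35 (2.86, SE 0.46, adjusted p = 2.35e-07). An intronic peak (68897503 to 68898242) passed in Exc-CA3 (0.71, SE 0.20) and Exc-CA1-Galntl6 (0.65, SE 0.21), and the other 3 peaks in none of the types tested. Reads of each strain were mapped to a genome of its own, and how far mapping contributes at single peaks was not tested.

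The synthesis genes differed between strains in astrocytes. Hmgcs1 (chromosome 13, 119690379 to 119708260, + strand) had 96.7 and 109 CPM in B6 and 83.3 and 80.2 CPM in D2 (log2 fold change -0.33, SE 0.12, adjusted p = 0.0360). Sqle (chromosome 15, 59315077 to 59331192, + strand) had 77.3 and 65.6 CPM in B6 and 48.9 and 58.3 CPM in D2 (-0.41, SE 0.14, adjusted p = 0.0211). The strains did not overlap for either gene, but each call was lost with DESeq2 (adjusted p = 0.351 and 0.324). The Hmgcs1 call was also lost without B6 library 3 (-0.23) or either D2 library, and the Sqle call without B6 library 2 (-0.29) or D2 library 2 (-0.28). Hmgcs1 overlaps an antisense gene, Gm48342, and whether counting used strand is not stated.

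The rest of the pathway was read beside them, from a list of 21 synthesis genes that includes Hmgcs1 and Sqle. In astrocytes 20 of 21 had a fold change below 0 and 12 passed the test as lower in D2, none as higher, where 11.7% of all genes passed as lower. The list's median log2 fold change was -0.43, against 0.02 over all genes tested in astrocytes. Of these, 11 are named here. The early steps were Hmgcs1 and Pmvk, a kinase (-0.61, SE 0.22). Isoprenoid assembly gave Idi1 (-0.97, SE 0.16), Fdps (-0.77, SE 0.20) and Fdft1, squalene synthase (-0.43, SE 0.13). The sterol branch gave Sqle, Lss (-0.91, SE 0.20), Cyp51 (-0.64, SE 0.12), Tm7sf2 (-0.75, SE 0.22), Msmo1 (-0.28, SE 0.11) and Nsdhl (-1.998, SE 0.15). Idi1 shows the size, with 46.5 and 49.6 CPM in B6 and 22.6 and 26.2 CPM in D2 (adjusted p = 6.40e-06). The count was 3 with DESeq2 and 6 without the low-count filter. It was 7 without B6 library 3 and 6 without D2 library 3.

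In the other types the list's median log2 fold change lay between -0.12 and 0.30 in the 13 other types, and at most 2 genes were lower in D2 in any one type. The upper end was oligodendrocytes, where 4 of 19 tested genes were higher in D2 and none lower (edgeR), 5 were below 0 and the median over all genes was 0.02. The share called there was near that of all genes, 19.0% in either direction. Nsdhl, a sterol dehydrogenase, was lower in D2 in 10 of the 11 types tested (by 1.08 to 2.43 on the log2 scale where it passed). A contrast chosen after the values were seen set the excitatory types against astrocytes, and 6.34% of all genes passed it in either direction. It uses the astrocyte values already described, so it is no separate support. The strain difference of 9 of the 21 genes was less negative in the excitatory types. Hmgcs1 was among them (difference 0.48, SE 0.14, adjusted p = 0.0268), as was Fdft1 (0.79, SE 0.15, adjusted p = 6.31e-05), which was higher in D2 in Exc-DG, Exc-Cdh12 and oligodendrocytes. Sqle was not (0.36, SE 0.17, adjusted p = 0.245). As given above, the oligodendrocyte marker sum in astrocytes also differed by strain, and its part in this result was not tested.

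**Figure D3:**
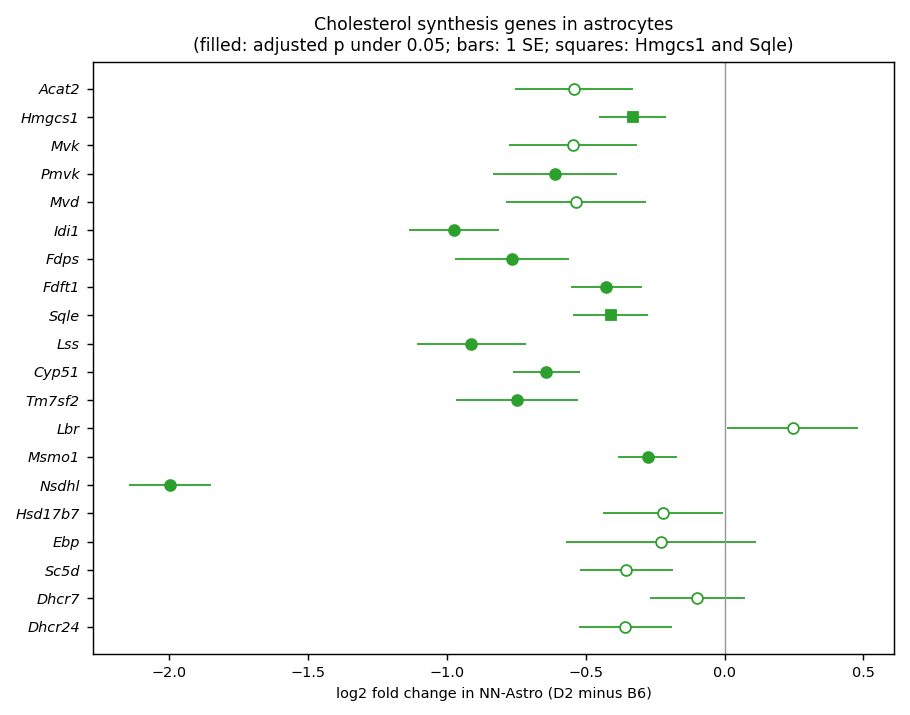
Strain difference of 20 of the cholesterol synthesis genes in astrocytes. The horizontal axis is the log2 fold change, D2 minus B6 (edgeR). Points are filled where the adjusted p is under 0.05, bars are 1 SE, and squares mark Hmgcs1 and Sqle. All but Lbr lie below 0, and 11 points are filled.

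Chromatin at the starts of these genes was compared too. The Sqle promoter peak (chromosome 15, 59314192 to 59316024) was more accessible in D2 in 3 excitatory types: Exc-CA3, with 34.6 and 32.6 CPM in B6 and 42.6 and 46.2 in D2 (log2 fold change 0.41, SE 0.07, adjusted p = 5.19e-06), Exc-CA1-Camk2d (0.35, SE 0.10, adjusted p = 0.0238) and Exc-CA1-Galntl6 (0.27, SE 0.08, adjusted p = 0.0191). These calls were lost without either D2 library in Exc-CA3, without either B6 library in Exc-CA1-Galntl6 and without any library in Exc-CA1-Camk2d, with log2 differences then from 0.19 to 0.45. The Sqle transcript passed in none of these types (-0.06, SE 0.16, adjusted p = 0.819 in Exc-CA3). Hmgcs1, whose sterol element is printed above, had no called difference at its promoter peak, with log2 fold changes from -0.12 to 0.26. In astrocytes the differences were 0.01 (SE 0.21) for Hmgcs1 and -0.03 (SE 0.23) for Sqle, on 24 to 81 counts per library, and a change of the size seen in the transcripts is within about 2 SE of these values.

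Apoe differed between strains in glia. On chromosome 7 (19696109 to 19699188, - strand), it had 1366 and 1328 CPM in B6 microglia and 1689 and 1994 CPM in D2 microglia (log2 fold change 0.50, SE 0.11, adjusted p = 0.00444). Oligodendrocyte precursors had 1201 and 1143 CPM in B6 and 1336 and 1442 CPM in D2 (0.28, SE 0.09, adjusted p = 0.0134). The strains did not overlap in either type. Of all genes, 10.4% were called in microglia and 16.2% in precursors, in either direction. The microglial call held without any one library, and that in precursors was lost without B6 library 3 or D2 library 3 (0.25 in both cases, adjusted p = 0.0875 and 0.138).

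Astrocytes also passed (0.32, SE 0.11, adjusted p = 0.0299), but there B6 held 6319 and 4079 CPM and D2 6096 and 6833 CPM, so the strains overlapped. Without B6 library 3 the log2 fold change was 0.04 (adjusted p = 0.676), and without D2 library 3 it was 0.24 (adjusted p = 0.174). The call was also lost with DESeq2 (adjusted p = 0.729), without the low-count filter (0.248) and with counts required in both strains (0.0618). Of all genes, 26.2% were called in astrocytes. Oligodendrocytes (0.01, SE 0.11) and the 9 neuronal types (-0.07 to 0.25) did not pass. The mean strain difference in neurons was below that in non-neuronal types by 0.24 (SE 0.07, adjusted p = 0.0219; 6.11% of genes passed), a call that was lost without B6 library 2, B6 library 3 or D2 library 3 (-0.23, -0.21 and -0.06). The Apoe promoter peak did not pass in any of the 9 types.

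Clu (chromosome 14, 65968483 to 65981547, + strand) was lower in D2 in 3 types and not in astrocytes, where it is most abundant. Of all genes, 19.0% were called in oligodendrocytes, 36.0% in Exc-DG and 35.0% in Exc-CA1-Galntl6, in either direction. Oligodendrocytes had 80.7 and 73.1 CPM in B6 and 53.4 and 45.9 CPM in D2 (log2 fold change -0.57, SE 0.17, adjusted p = 0.0211). Exc-DG had 36.9 and 30.6 CPM against 27.3 and 23.0 CPM (-0.38, SE 0.13, adjusted p = 0.0321), and Exc-CA1-Galntl6 36.5 and 29.7 CPM against 26.1 and 23.5 CPM (-0.38, SE 0.14, adjusted p = 0.0470). The strains did not overlap in these types. All 3 calls were lost with DESeq2 (adjusted p = 0.385, 0.165 and 0.289) and without B6 library 2 or D2 library 3, the smallest difference being -0.21 in Exc-CA1-Galntl6, whose call was lost without D2 library 2 as well. Astrocytes had 620.0 and 478 CPM in B6 and 540.4 and 618 CPM in D2 (0.08, SE 0.10, adjusted p = 0.636), with full overlap. The strain difference varied among types (joint edgeR fit, adjusted p = 0.0123), in a test that 13.9% of genes passed, but this call was lost without D2 library 3. The astrocyte marker list summed to 331 and 367 CPM in B6 oligodendrocytes and 319.6 and 295 CPM in D2 oligodendrocytes, and to 252 and 257 against 244 and 232 CPM in Exc-DG, lower in D2 in both. The inhibitory list went from 225 and 155 to 94.2 and 77.0 CPM in oligodendrocytes. The part of either list in the Clu result was not tested.

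Abca1 (chromosome 4, 53030787 to 53159895, - strand) was lower in D2 microglia, the type of its highest mean, with 274 and 370.4 CPM in B6 and 184 and 225 CPM in D2 (log2 fold change -0.61, SE 0.16, adjusted p = 0.0185). The call was lost with DESeq2 (adjusted p = 0.312), without B6 library 3 (-0.38, adjusted p = 0.268) and without D2 library 2 (-0.50, adjusted p = 0.116). Some marker sums of other cells were also lower in D2 microglia. The astrocyte list went from 429 and 433 CPM in B6 to 305 and 263 CPM in D2. The D2 over B6 ratio was 0.596 for the neuron list and 0.637 for the oligodendrocyte list, against 1.07 for the microglial list. Other lists were higher in D2, with ratios of 1.29 for the precursor list and 1.77 for the VLMC list. The part of these sums in the Abca1 result was not tested. The 12 other types tested did not pass, with differences from -0.52 to 0.64, and 0.13 (SE 0.10) in astrocytes. The variation among types passed narrowly (joint edgeR fit, adjusted p = 0.0481), in a test that 13.9% of genes passed. It did not pass with another normalization (adjusted p = 0.0645) or without B6 library 3, D2 library 2 or D2 library 3. The Abca1 promoter peak passed in none of the 9 types. It was counted as a whole, so the LXR-type element inside it was not measured separately. Of 18 other Abca1 peaks, 1 in Exc-CA3 (0.48, SE 0.12) and 1 in Exc-Gpc6 (1.05, SE 0.29) were higher in D2.

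Cyp46a1 (chromosome 12, 108334381 to 108362234, + strand), the neuronal cholesterol hydroxylase, passed in none of the 12 types tested by edgeR. Its log2 fold changes ran from -0.09 to 0.26, and in Exc-DG, with 326 to 468 counts per library, it was 0.08 (SE 0.10). Its promoter peak passed in none of the 9 types (-0.07 to 0.48).

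**Figure D4:**
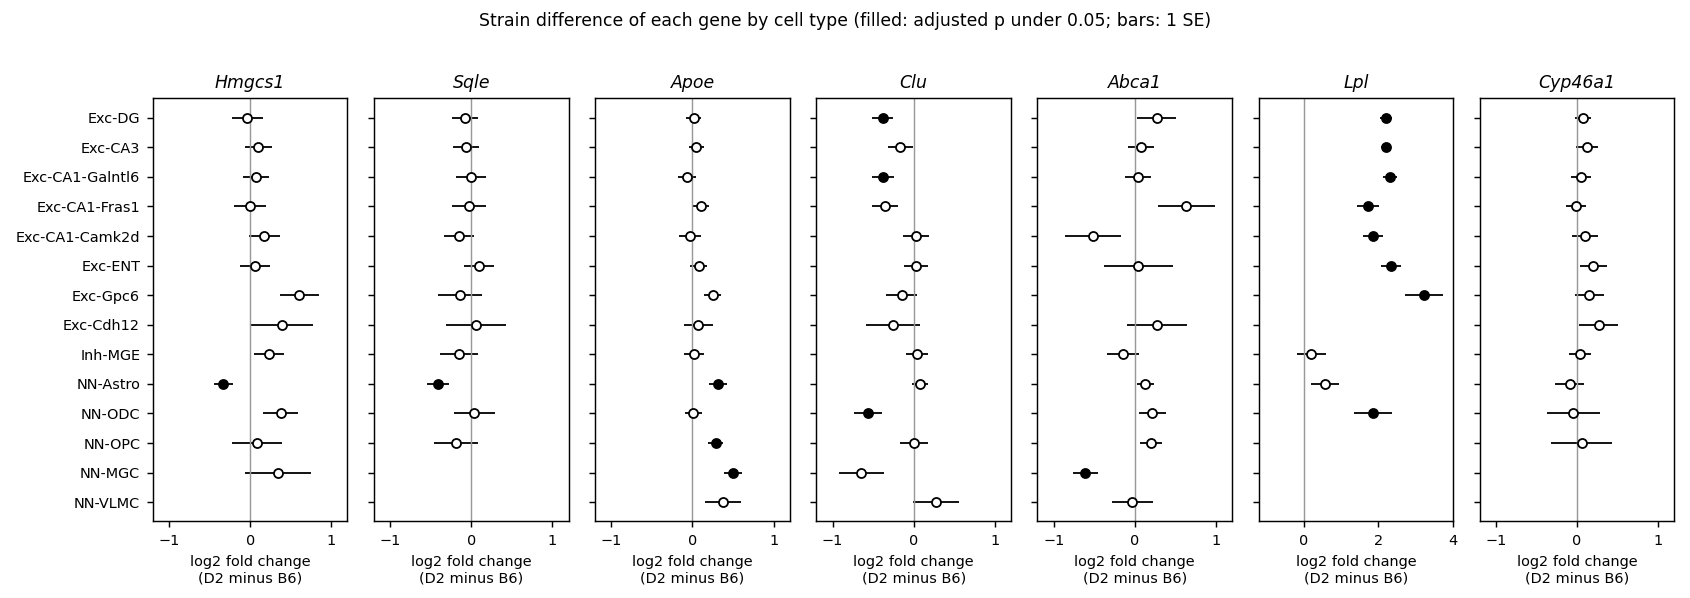
Strain difference of each of the 7 genes by cell type. The horizontal axis is the log2 fold change, D2 minus B6 (edgeR, snRNA-seq, with a wider axis for Lpl), bars are 1 SE, and filled points have an adjusted p under 0.05. A gene without a point in a cell type was not tested there. Lpl is filled in 7 excitatory types and oligodendrocytes, and Cyp46a1 is filled in none.

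The other genes of the pathway, 62 measured genes in lists of sterol synthesis, sensing and trafficking, lipoproteins and efflux, receptors, lipase partners, and turnover, gave 642 tested pairs in 60 genes, of which 33 were higher and 44 lower in D2. That is 12% of pairs, against 23.8% of pairs over all genes. The genes called higher in the largest numbers of types were Stard4, a sterol carrier, in 7 of 10 types tested (median log2 fold change where called 1.19), and Cyp7b1, an oxysterol hydroxylase, in 4 of 13 (0.30). Lipe, hormone-sensitive lipase, was higher in 3 of 14 (0.44). Over all genes, 13.9% of gene and cell type pairs were higher in D2. Msmo1 was higher in Exc-CA1-Galntl6 and oligodendrocytes (0.48) and lower in astrocytes.

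After Nsdhl, the genes called lower in the largest numbers of types were Nr1h3, which encodes LXR alpha, in 5 of 8 types tested, all excitatory (median where called -1.44), and Apod, another apolipoprotein, in 5 of 13 (-0.87). Npc1, which moves cholesterol out of lysosomes, was lower in 4 of 14 (-0.50), Cyp51 in 3 of 14 (-0.64), and Soat1, which esterifies cholesterol, in 2 of 14 (-1.15). Srebf2 and Sort1 were also lower in 2 of 14 each, with smaller medians where called (-0.37 and -0.25). Over all genes, 9.91% of gene and cell type pairs were lower in D2, so a count of 2 in 14 does not set a gene apart. In Exc-CA3 Nr1h3 had 13.01 and 10.5 CPM in B6 and 3.09 and 5.59 CPM in D2 (-1.44, SE 0.29, adjusted p = 7.39e-04).

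Outside synthesis, 7 of 36 list genes tested passed in astrocytes (19.4%), below the 26.2% of all genes there. Pltp, a phospholipid transfer protein, rose from 8.52 and 7.85 CPM in B6 to 22.9 and 17.6 CPM in D2 (log2 fold change 1.30, SE 0.26, adjusted p = 1.05e-04). Stard4 (0.96, SE 0.25), Angptl4, an inhibitor of Lpl (0.80, SE 0.28), Lcat, which esterifies lipoprotein cholesterol (0.54, SE 0.18), Sorl1, a sorting receptor that binds Apoe (0.47, SE 0.11), and Cyp7b1 (0.33, SE 0.10) were also higher in D2, and Apod was lower (-0.68, SE 0.19).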

How the data were processed

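Nuclei of the ventral hippocampus were profiled by snRNA-seq and snATAC-seq in both strains, each assay on 2 libraries of each. Per the study's methods, the authors mapped reads with Cell Ranger 6.0.2 (introns kept) and Cell Ranger ATAC 2.0.0 to mm10 for B6 and to mm10 carrying the D2 single-nucleotide variants for D2, removed low-quality nuclei and doublets, clustered and named nuclei with Seurat 4.0.5, transferred the names to snATAC-seq, and deposited raw counts summed per cell type and library over 33902 genes and 300819 peaks. The gene annotation release is not given in the sources used here. Insertions, deletions and larger variants are not in the D2 genome, so reads over them can be lost in one strain, which can raise or lower a gene or peak.

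The columns number libraries 2 and 3 while the labels number replicates 1 and 2, so a column was placed in its strain and in no single sample. Cell types used were 14 in snRNA-seq (56 columns) and 9 in snATAC-seq (36 columns), with 12 and 24 columns not used. The DNA methylation samples were not analysed here. Counts were tested in each type with edgeR 4.0.16 (R 4.3.3), quasi-likelihood F test, TMM normalization, filterByExpr for genes and at least 10 counts for peaks, Benjamini-Hochberg adjustment over all features tested and a threshold of 0.05. DESeq2 1.42.0 was an alternative. The cell type by strain test kept cell type and library in 1 fit. Scripts were tested on simulated data. A promoter peak overlapped 250 bases before to 50 after a GENCODE vM21 start (GRCm38).

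The members and lists were chosen with earlier results of these data known. Named beside the members were, of each list, up to 6 genes per direction called in most types, every list gene called in astrocytes, and for each member the 3 genes with the most similar mean levels, among genes of at least 10 CPM in 1 type. Libraries were pools of about 2 animals, and p-values measure the spread between pools. The values of 2 list genes are not reported here.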

Additional observations from a re-analysis of the deposited data

Results flagged for a closer look

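The strain difference of 3 genes varied among the 14 cell types in the joint edgeR fit. For Lpl the adjusted p was 0.00101, with log2 differences from 0.21 in Inh-MGE to 3.21 in Exc-Gpc6, and it stayed under 0.05 without any one library. For Clu it was 0.0123, with a difference of -0.57 in oligodendrocytes and 0.08 in astrocytes, and it was 0.756 without D2 library 3. For Abca1 it was 0.0481, with -0.61 in microglia and 0.13 in astrocytes, and it was 0.313, 0.465 and 0.613 when B6 library 3, D2 library 2 or D2 library 3 was left out. The Apoe strain difference averaged over neuronal types minus that over non-neuronal types was -0.24 on the log2 scale (adjusted p = 0.0219), and between -0.50 and -0.06 with 1 library left out.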

How the results depend on the processing

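Of the members' 17 called pairs, DESeq2 called 9, all among the 17 (7 of Lpl and 2 of Apoe), and leaving out 1 library gave 9 to 16. The other pathway genes gave 77 calls, 20 with DESeq2 and 45 to 80 with 1 library left out (51 without D2 library 2, 45 without D2 library 3). The 12 synthesis genes lower in D2 astrocytes became 3 with DESeq2, 6 without the low-count filter and 6 to 13 with 1 library left out. The 3 genes whose strain difference varied among types became 1 to 3, and the 1 gene in the neuronal minus non-neuronal contrast 0 to 1. The 9 promoter peak calls became 4 to 7, and counting all peaks of the gene and 2 kb on each side, chosen after seeing the data, gave 23. The cause of these changes was not tested. No called pair or peak reversed direction in the alternatives run. In the neuronal minus non-neuronal contrast, differences that were not called changed sign with 1 library left out for Hmgcs1 (0.20 to -0.01), Sqle (0.09 to -0.16), Clu (0.02 to -0.06, and -0.02 with RLE normalization) and Abca1 (0.05 to -0.12). Lpl was called in 7 excitatory types in all of them but 1, with 6 without D2 library 3. The requirement of 200000 counts per library kept every type.

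Library numbers are shared between strains but the labels name no common litter or day, and the deviations of same-numbered libraries correlated between -0.199 and 0.0839 over the cell types. With the number as a replicate block the members gave 18 calls, the pathway genes 83, the astrocyte synthesis list 13 and the promoter peaks 10. Depth limits the low levels: Lpl had 10 counts or fewer in each library of microglia, precursors, VLMC and Exc-Cdh12, and astrocyte snATAC-seq rested on 33 to 65 nuclei.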
